A study of Aedes aegypti with 5 samples.

Results

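Defensin A1 (S82860) and gambicin (AF466602) are antimicrobial peptides of the yellow fever mosquito, Aedes aegypti. They were taken by their symbols from the gene column of the array table and are 2 of the 433 gene probes on a nylon membrane array of salivary gland transcripts. Female mosquitoes of the Higgs white eye strain, all of the same age, starved beforehand and without an earlier blood meal, were either left unfed (labelled naïve) or allowed to engorge on a BALB/c mouse. Salivary glands of the fed females were dissected at 1, 3, 24 or 48 hours post feeding (hpf). Total RNA was amplified, labelled with biotin and hybridised to 3 membranes per group, which gave 15 arrays in 5 groups. The study calls the 3 arrays of a group technical replicates, so every error and p-value below measures the spread between arrays of a group and not between groups of mosquitoes. All comparisons with unfed glands share the same 3 unfed arrays.

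Insect defensins are small, secreted, disulphide-bridged peptides that act mainly against Gram-positive bacteria. In mosquitoes they are made largely by the fat body after infection, under the Toll and Imd pathways, and also by epithelia such as the midgut and the salivary gland. Gambicin is a cysteine-rich antimicrobial peptide first described in Anopheles, where it is expressed in midgut, haemocytes and other immune tissues. In glands pooled from several females, fewer cells making a peptide and less RNA per cell cannot be told apart.

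Each spot was read as a raw intensity together with the brightness of the membrane around it, called here the local background. To obtain the normalized intensity, the brightness of the empty spots was first subtracted. The result was then divided by a reference, the average of an actin and a ribosomal protein S5 spot of that array, so that the pair of reference spots averages 1. A spot counted as above the empty spots if it was over 2 SD brighter than their average, and as saturated at a raw intensity of 60000 or more. Each array had 121 to 162 probes above the empty spots and 33 to 64 saturated ones. Of 17 probes for known salivary proteins (D7, apyrase, amylase, 30 kDa and the like), 14 were above the empty spots on every array. The single muscle probe, myosin light chain, was above them on none, and no fat body marker from the list used was on the array. Of 4 probes matched by midgut keywords (trypsins, a chymotrypsin-like enzyme and a peritrophin, some of them described as salivary), 3 were above the empty spots on every array. The 2 haemocyte probes, both prophenoloxidase activators, were above them on 4 and 8 of the 15 arrays. The part of other tissues in the results was not tested.

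Defensin A1 was near the empty spots in unfed glands and above them on every fed array, with the brightest spots at 1 and 3 hpf and a decline by 48 hpf. In unfed glands its normalized intensity was 0.163, 0.0712 and 0.174 on arrays 1, 2 and 3, a mean of 0.136 ± 0.0564 (SD, n = 3 arrays). Array 1 was the only unfed array on which the spot exceeded the limit set by the empty spots. At 1 hpf it was 1.70, 1.73 and 1.67, a mean of 1.70 ± 0.0309 (SD, n = 3). The 1 hpf arrays lay close together and far above all unfed arrays. At 3 hpf it was 2.14, 1.96 and 1.80, a mean of 1.96 ± 0.169 (SD, n = 3). At 24 hpf it was 0.794, 1.02 and 1.57, a mean of 1.13 ± 0.401 (SD, n = 3). At 48 hpf it was 0.324, 0.330 and 0.827, a mean of 0.494 ± 0.288 (SD, n = 3). The later groups were more scattered, array 3 being the highest in both, but no fed array overlapped the unfed arrays on this scale.

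**Figure D1:**
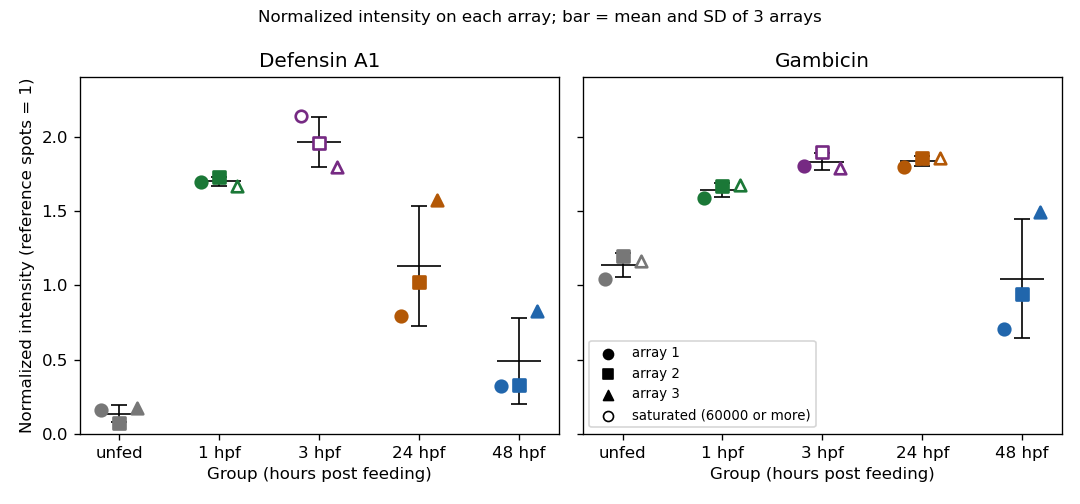
Normalized intensity of defensin A1 (left) and gambicin (right) on each array of the 5 groups, with the mean and SD of 3 arrays as a bar; open symbols are saturated spots. All 12 fed arrays of defensin A1 lie above its 3 unfed arrays, whereas the 48 hpf arrays of gambicin span the unfed ones.

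The mean of defensin A1 at 1, 3, 24 and 48 hpf was 12.5, 14.4, 8.30 and 3.63 times its unfed mean. On the log2 scale, with lower values set to a floor of 0.113, limma gave a change of 3.52 at 1 hpf (95% interval 2.77 to 4.28, adjusted p = 0.000167). It gave 3.73 at 3 hpf (2.98 to 4.48, adjusted p = 9.21e-05) and 2.88 at 24 hpf (2.13 to 3.63, adjusted p = 0.000667). At 48 hpf the change was 1.59 (0.84 to 2.35, adjusted p = 0.0618), which did not pass the threshold of 0.05. With the array number as a replicate block the 48 hpf change passed (adjusted p = 0.00222), and the other calls stayed as they were. Of the 432 probes tested, the share called higher at the 4 times was 0.926%, 0.926%, 0.926% and 0.231%, against 15.3%, 13.4%, 12.3% and 11.1% with the block. At 1 hpf the other probes called higher were the angiopoietin-like protein AE-6349, the glycine-rich salivary peptide AET-4173 and I23Ma (AEA-233), named here after their values were seen. Those 4 probes, defensin A1 included, were also the ones called higher at 3 and 24 hpf, whereas AET-4173 alone was called at 48 hpf.

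All 3 arrays of a fed group stood above all 3 unfed arrays for 4.85%, 5.54%, 11.1% and 12.9% of the 433 probes at the 4 times in order. Defensin A1 was among them at each time. All 12 fed arrays stood above all 3 unfed arrays for 1.15% of probes, that is 5 probes, which were defensin A1, the same 3 and the C-type lectin AE-189. Comparing arrays of the same number, the ratio to unfed for defensin A1 ran from 9.60 to 24.3 at 1 hpf and from 10.3 to 27.5 at 3 hpf. It ran from 4.86 to 14.4 at 24 hpf and from 1.99 to 4.75 at 48 hpf. The highest of these ratios at 1, 3 and 24 hpf came from array 2, on which the unfed spot was lowest. The size of the ratio therefore rests on unfed values that are mostly not above the empty spots.

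The raw spots bounded defensin A1 from above as well. At 3 hpf the raw intensities were 62509, 64698 and 64954, so all 3 arrays were saturated, and the scanner's top value is 65535. At 1 hpf they were 33705, 49602 and 61382, of which array 3 was saturated. No 24 or 48 hpf array was saturated. The raw intensities were 21015, 31920 and 53384 at 24 hpf and 9302, 12370 and 28948 at 48 hpf. Those of 48 hpf arrays 1 and 2 were below that of unfed array 3 (13355). Against the unfed array of the same number, the 48 hpf spot was 1.16, 2.08 and 2.17 times as bright. With the saturated spots at their values and the unfed arrays set to no less than the lowest signal above the empty spots, the 3 hpf level was at least 12.8-fold above unfed, or at least 9.98-fold with a limit of 3 SD. The S5 reference spot was itself saturated on arrays 2 and 3 of both groups, so these bounds hold only on this reference. They are bounds on the means and leave out the spread between arrays. The limma interval at 3 hpf, which holds that spread, began at 7.88-fold. The order of 1 and 3 hpf could not be read from these spots (difference 0.21 on the log2 scale, 95% interval -0.55 to 0.96, adjusted p = 1.0), since all 3 hpf spots were saturated.

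The spot against its own surroundings gave a second view that used neither the reference spots nor the empty spots, added after the values were seen. In unfed glands the defensin A1 spot was darker than its local background on all 3 arrays, at 7987 against 10568, 5953 against 8382 and 13355 against 16904. The spot was thus 0.752 ± 0.0401 of its local background (SD, n = 3). In every fed group it was brighter than its local background on all 3 arrays, by a mean factor of 2.68 ± 0.663, 1.75 ± 0.568, 2.12 ± 0.541 and 1.61 ± 0.239 at the 4 times (SD, n = 3). A spot below its surroundings on all unfed arrays and above on all fed arrays was found for 0.462% of the 433 probes, which are defensin A1 and the angiopoietin-like AE-6349. At 3 hpf, where the spot was saturated, its local background was 26174 to 49656.

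**Figure D2:**
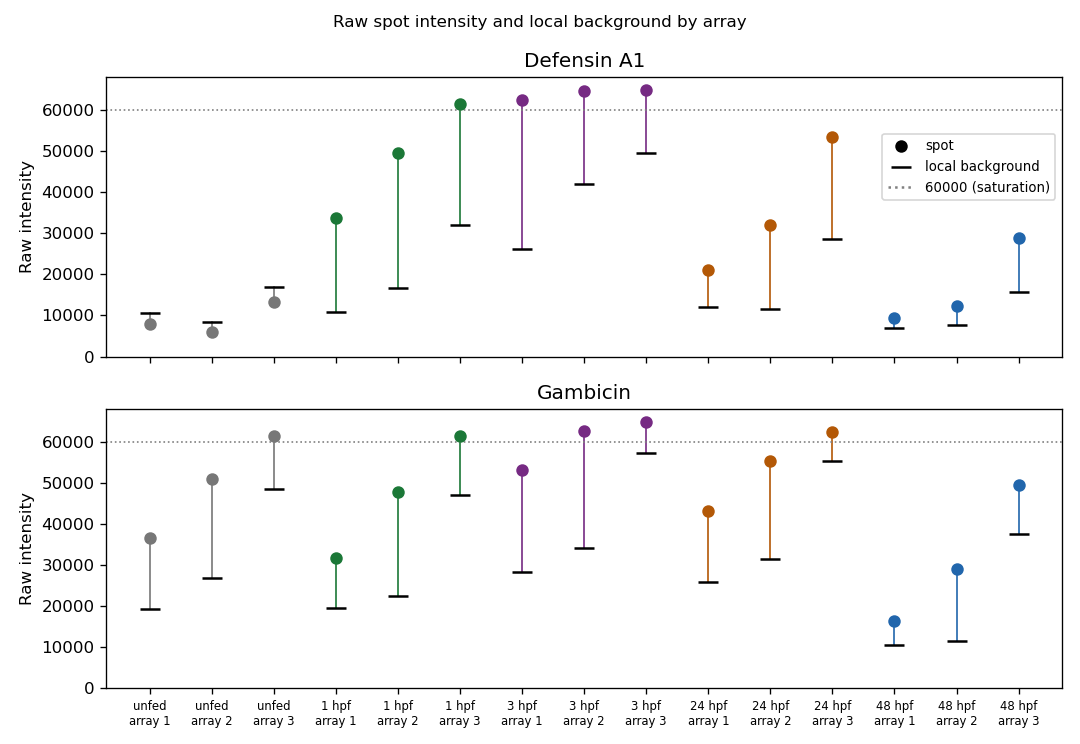
Raw intensity of the spot (points) and of its local background (dashes) for defensin A1 (top) and gambicin (bottom) on each of the 15 arrays; the dotted line is the saturation limit of 60000. The defensin A1 point lies below its dash on the 3 unfed arrays only, and array 3 is the brightest of each group for both peptides.

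Among the fed groups, defensin A1 was lower at 48 hpf than at 3 hpf. The difference was -2.14 on the log2 scale (95% interval -2.89 to -1.38, adjusted p = 0.0154), and 0.231% of the probes tested were called lower in that comparison. The 3 hpf spots were saturated, so the size of this difference is not settled. The call was lost on the S5 spot alone (adjusted p = 0.0733), with median scaling (0.0522), with no scaling (0.465), with normexp on the local background (0.117), with the 2 groups alone (0.463) and by the methods' t-test (0.649). It was also lost on leaving out 3 hpf array 2 (adjusted p = 0.104) or 48 hpf array 2 (adjusted p = 0.0811), and was kept with the block (0.00102) and with quantile normalization (0.000311). Against 1 hpf the 48 hpf level differed by -1.93 (95% interval -2.68 to -1.18, adjusted p = 0.0564, or 0.00202 with the block). Against 24 hpf it differed by -1.28 (95% interval -2.04 to -0.53, adjusted p = 0.262, or 0.0353 with the block). With the block, 9.03%, 6.94% and 3.7% of probes were called lower at 48 hpf than at 1, 3 and 24 hpf. From 1 to 24 hpf the difference was -0.65 (95% interval -1.40 to 0.10, adjusted p = 0.919), and from 3 to 24 hpf it was -0.85 (95% interval -1.60 to -0.10, adjusted p = 0.754). Neither passed with the block (adjusted p = 0.351 and 0.146). In rising order the levels were unfed, 48 hpf, 24 hpf and then 1 and 3 hpf, whose order is not settled, and no pair of neighbours in that order differed past the threshold without the block. With it, 48 hpf differed from unfed and from 24 hpf.

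Gambicin, unlike defensin A1, was bright before feeding, and its fed means lay within a factor of 2 of the unfed mean. Its normalized intensity in unfed glands was 1.04, 1.20 and 1.16, a mean of 1.14 ± 0.0799 (SD, n = 3). At 1 hpf it was 1.59, 1.67 and 1.67 (mean 1.64 ± 0.0462, SD, n = 3). At 3 hpf it was 1.80, 1.90 and 1.79 (mean 1.83 ± 0.0569, SD, n = 3). At 24 hpf it was 1.80, 1.85 and 1.86 (mean 1.84 ± 0.0346, SD, n = 3). The 1, 3 and 24 hpf arrays lay above the unfed arrays without overlap. Of the 433 probes, 4.85%, 5.54% and 11.1% did so at these times. At 48 hpf the gambicin intensity was 0.706, 0.942 and 1.49 (mean 1.05 ± 0.403, SD, n = 3), with arrays 1 and 2 below all unfed arrays and array 3 above them.

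The ratio to unfed for gambicin was 1.45, 1.61, 1.62 and 0.922 at 1, 3, 24 and 48 hpf. The log2 change was 0.54 at 1 hpf (95% interval 0.09 to 0.98, adjusted p = 0.244) and 0.69 at 3 hpf (0.25 to 1.14, adjusted p = 0.199). It was 0.70 at 24 hpf (0.25 to 1.14, adjusted p = 0.153) and -0.18 at 48 hpf (-0.63 to 0.26, adjusted p = 1.0). None of the 4 passed the threshold. With the replicate block those at 3 hpf (adjusted p = 0.0366) and 24 hpf (adjusted p = 0.0178) did, and those at 1 hpf (0.0685) and 48 hpf (0.950) did not. Leaving out 48 hpf array 3, the most distant gambicin value within a group, brought 3 hpf to an adjusted p of 0.0137 and 24 hpf to 0.0106 without the block. That array is in neither group compared, so the changes stayed at 0.69 and 0.70. Of the 15 limma fits with 1 array left out, only that 1 passed at either time, and the highest adjusted p was 0.517 and 0.541.

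The scale of the arrays also differed between the groups. The actin spot carried 14.1 to 38.9% of the reference signal on the unfed arrays, 7.05 to 17.6% at 1 hpf, 3.21 to 10.7% at 3 hpf, 1.76 to 7.63% at 24 hpf and 1.56 to 5.90% at 48 hpf. The 30 probes that were saturated on all 15 arrays, and so could show no change, had a median log2 change of 0.64, 0.37, 0.56 and 0.66 at the 4 times after this normalization. The gambicin change was smaller than this at 1 and 48 hpf and larger at 3 and 24 hpf, a difference that was not tested. With the block all 30 saturated probes were called higher at each time, and with no block none was. Scaling on the median of the probes above the empty spots lowered the gambicin change by 0.48, 0.38, 0.38 and 0.27 at the 4 times, to 0.05, 0.31, 0.32 and -0.46. On the S5 spot alone the changes were 0.26, 0.34, 0.31 and -0.58, and on unscaled intensities -0.11, 0.33, 0.15 and -0.85. Quantile normalization gave 0.23, 0.46, 0.52 and 0.02, of which 3 hpf (adjusted p = 0.00180) and 24 hpf (adjusted p = 0.000774) passed. The direction was therefore the same under all 5 scalings at 3 and 24 hpf, turned on unscaled intensities at 1 hpf, and turned under quantile normalization at 48 hpf.

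For defensin A1 the direction was the same under all 5 scalings at all times. Its change under the other 4 ran from 3.05 to 3.33 at 1 hpf and from 3.45 to 3.68 at 3 hpf. It ran from 2.50 to 2.98 at 24 hpf and from 1.10 to 2.08 at 48 hpf. On unscaled intensities the calls at 1 hpf (adjusted p = 0.0824) and 24 hpf (adjusted p = 0.186) were lost.

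**Figure D3:**
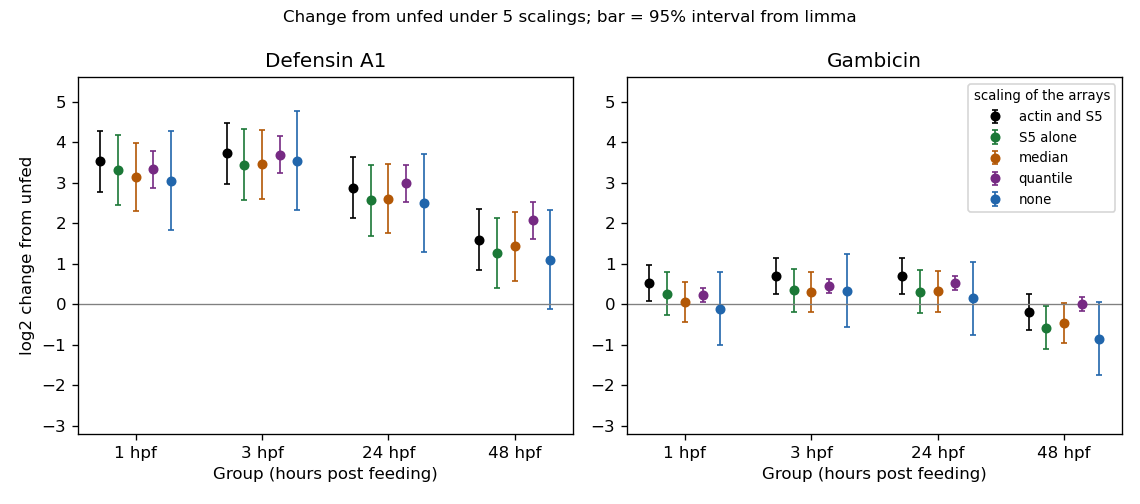
Change from unfed on the log2 scale for defensin A1 (left) and gambicin (right) at 4 times under 5 scalings of the arrays, with the 95% interval from limma as a bar. The defensin A1 points all lie above 0, from 1.10 to 3.73, whereas the gambicin points at 1 and 48 hpf lie on both sides of 0.

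The raw gambicin spots were near the top of the scale on many arrays, which limits what could be seen. In unfed glands they were 36604, 50899 and 61340, and at 1 hpf 31780, 47830 and 61534. At 3 hpf they were 53222, 62738 and 64760. At 24 hpf they were 43243, 55451 and 62450, and at 48 hpf 16426, 29083 and 49557. Array 3 was saturated in unfed, 1, 3 and 24 hpf glands and array 2 also at 3 hpf, while the 48 hpf arrays were all below the limit. Against the unfed array of the same number, the raw spot was 0.868, 0.940 and 1.00 times as bright at 1 hpf, a normalized ratio of 1.52, 1.39 and 1.44. It was 1.45, 1.23 and 1.06 times as bright at 3 hpf and 1.18, 1.09 and 1.02 times at 24 hpf. At 48 hpf it was 0.449, 0.571 and 0.808 times as bright, lower on all 3 arrays. The normalized ratio at 48 hpf was 0.675, 0.786 and 1.28, so array 3 was higher on that scale. The raw S5 reference spot was also dimmer at 48 hpf, at 0.683, 0.888 and 0.961 times the unfed spot. The spot was brighter than its local background on all 15 arrays, by a mean factor of 1.52 to 1.80 in the 5 groups.

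Among the fed groups, gambicin at 48 hpf differed by -0.72 from 1 hpf (95% interval -1.17 to -0.28, adjusted p = 0.185), by -0.88 from 3 hpf (-1.32 to -0.43, adjusted p = 0.0957) and by -0.88 from 24 hpf (-1.33 to -0.44, adjusted p = 0.154). With the block each passed (adjusted p = 0.0297, 0.0107 and 0.0183). Without 48 hpf array 3 each passed also with no block (adjusted p = 0.00269, 0.000709 and 0.00137). For each, that was the only 1 of the 15 limma fits with 1 array left out that passed. The highest adjusted p among them was 0.583, 0.366 and 0.619. The differences between 1, 3 and 24 hpf were 0.00 to 0.16, with 95% intervals that reached from -0.44 to 0.61 and an adjusted p of 1.0 for each. In rising order the gambicin means were 48 hpf, unfed, 1 hpf and then 3 and 24 hpf. The last pair differed by 0.00 with saturated spots in both, so their order is not settled, and no neighbours in the order differed past the threshold without the block.

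The change of defensin A1 relative to gambicin was taken within each array, where the array's scale cancels for spots above the floor. The defensin A1 spot of unfed array 2 was below it and entered at the floor. Relative to the unfed mean, the log2 ratio of the spots was higher by 2.94 to 3.03 on the 1 hpf arrays, by 2.94 to 3.18 at 3 hpf, by 1.76 to 2.70 at 24 hpf and by 1.43 to 2.09 at 48 hpf. The unfed arrays themselves ran from -0.46 to 0.26. The mean difference from unfed was 2.99, 3.04, 2.18 and 1.78 at the 4 times. All 3 fed arrays lay above all 3 unfed arrays at each time, and the two-sided exact permutation test gave p = 0.1 for each (0.1 after adjustment over the 4 times), the smallest p that 3 against 3 arrays allow. With the floor halved the differences were 3.21, 3.26, 2.41 and 2.00. At 3 hpf the defensin A1 spot was saturated on all 3 arrays and the gambicin spot on 2, so the size there is not settled in either direction. Gambicin was also saturated on array 3 of the unfed, 1 hpf and 24 hpf groups, and defensin A1 on array 3 of 1 hpf. Saturation therefore limits the sizes at the other times as well. The ratio does not say which peptide was the more abundant.

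**Figure D4:**
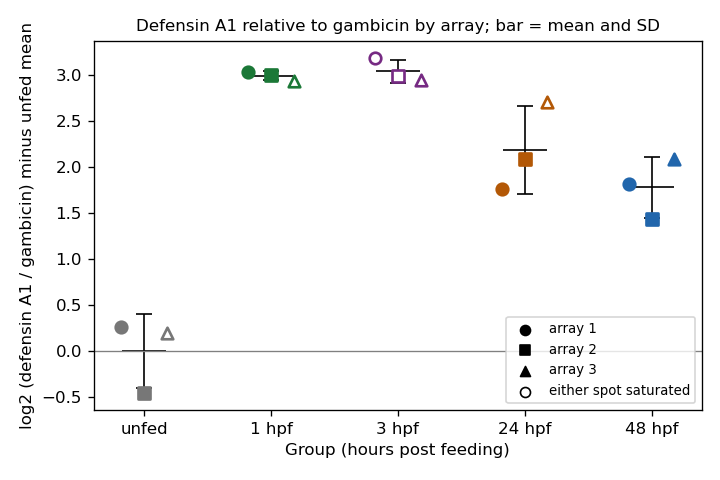
Log2 ratio of the defensin A1 to the gambicin spot on the same array, minus the mean of the unfed arrays, by group, with the mean and SD of 3 arrays as a bar; open symbols are arrays on which either spot was saturated. The fed arrays lie between 1.43 and 3.18, all above the unfed arrays at -0.46 to 0.26.

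The array held 3 further probes for antimicrobial effectors. The putative lysozyme AF466591, an enzyme that cleaves bacterial cell walls, was saturated on all 15 arrays, so it gave no measure of change. A probable antimicrobial peptide of the GGY family, AET-590, had mean normalized intensities of 0.171, 0.163, 0.173, 0.132 and 0.159 from unfed to 48 hpf, with changes of 0.07, 0.11, -0.26 and -0.10 on the log2 scale (adjusted p = 1.0 for each). A possible antimicrobial peptide with a HHH motif, AET-462, had means of 0.0973, 0.187, 0.273, 0.115 and 0.112. Its log2 changes were 0.54, 0.91, 0.09 and 0.12, with adjusted p of 1.0, 0.868, 1.0 and 1.0. Both were dim, above the empty spots on 12 and 10 of the 15 arrays. Of the 5 effectors, 1 (defensin A1) was called higher at 1, 3 and 24 hpf and 0 at 48 hpf, beside 4, 4, 4 and 1 of all 432 probes. At an unadjusted p under 0.05, 3, 2, 2 and 2 effectors were higher, beside 65, 15, 19 and 48 of all probes. The saturated lysozyme was among these effectors at 1 and 48 hpf. With the block 2, 3, 3 and 2 were called, the saturated lysozyme each time among them. The median change of the 5 was 0.54, 0.69, 0.56 and 0.12 at the 4 times, beside a median of 0.00 over all 432 probes, most of which were not above the empty spots. At 24 hpf the median of the 5 was the value of the saturated lysozyme itself. The 30 probes saturated on all arrays also had a median of 0.56 there.

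Keywords for microbe recognition matched 11 probes, such as C-type lectins, the Gram-negative binding protein and the peptidoglycan recognition protein. They also took in the mannose lectin ERGIC-53 (AET-438), described as acting in glycoprotein traffic and above the empty spots on no array. Of the 11, 1 (AE-6349) was called higher at 1, 3 and 24 hpf and 0 at 48 hpf. At an unadjusted p under 0.05, 7, 2, 3 and 5 of them were higher. At 1 and 48 hpf these included the 3 that were saturated on every array. The median change of the 11 was 0.65, 0.37, 0.56 and 0.51. At 1, 3 and 24 hpf the median probe was itself 1 of the 3 saturated on every array. Its closeness to the saturated probes there was thus given by the list. Of 5 probes for immune signalling and proteolysis (serpins, prophenoloxidase activators and a clip-domain protease), limma called 0 at any time, with 2, 0, 1 and 0 at an unadjusted p under 0.05, all higher. With the block, 7, 6, 6 and 6 of the recognition probes and 2, 1, 1 and 1 of the signalling probes were called higher, saturated ones included, beside 66, 58, 53 and 48 of all 432 probes. The peptidoglycan recognition protein AE-7210 was called higher at 1 hpf and lower at 24 hpf with the block, by 1.23 and -1.02 on the log2 scale.

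By Pearson correlation of the log2 values over the 15 arrays, the probes most like gambicin among 116 candidates were the serine protease AE-782 (r = 0.836), the porin AET-2852 (0.735), AE-6349 (0.717), the short D7 protein AE-182 (0.690) and the mucin-like peritrophin AE-466 (0.688). These 15 arrays include the 5 on which gambicin was saturated. The list also depended on the measure. Of these probes, Spearman correlation kept only AE-782 and AE-6349, and median scaling kept only AE-782, AET-2852 and AE-182. For defensin A1 the likeness was taken after the values were seen, over the 11 arrays on which it was not saturated and 117 candidates. The nearest were AE-6349 (r = 0.965), AET-4173 (0.879), the bacteria responsive protein AgBR1 (AEA-871BRE, 0.780), the haemolymph protein-like AET-166 (0.764) and the secreted protein AF466586 (0.735). The arrays share groups, numbers and brightness, and these values are a description only.

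AE-6349, the probe nearest to defensin A1 in pattern, is also its neighbour on the membrane. The array table gives AE-6349, defensin A1, gambicin and the lysozyme successive positions, 52 to 55. The local background of a spot was most alike to the spot 1 position on (r = 0.677 over 479 pairs), and again 16 positions on (r = 0.557) as compared with 10 or 14 positions on (0.424 and 0.433), so the positions are drawn here in rows of 16. In that layout defensin A1 adjoined 2 probes saturated on all 15 arrays, amylase (position 38) and AF466592 (position 69). Gambicin adjoined 4 of them. The gambicin spot, next to that of defensin A1, averaged 49614 on the unfed arrays. At 1, 3, 24 and 48 hpf it averaged 47048, 60240, 53714 and 31689. The AE-6349 spot averaged 7424 on the unfed arrays and 37342, 24996, 42346 and 14456 at 1, 3, 24 and 48 hpf, and that of defensin A1 averaged 9098, 48230, 64054, 35440 and 16873. AE-6349 was dimmer at 3 hpf than at 1 and 24 hpf, whereas defensin A1 was brightest there. What light from neighbouring spots adds to either peptide was not tested.

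**Figure D5:**
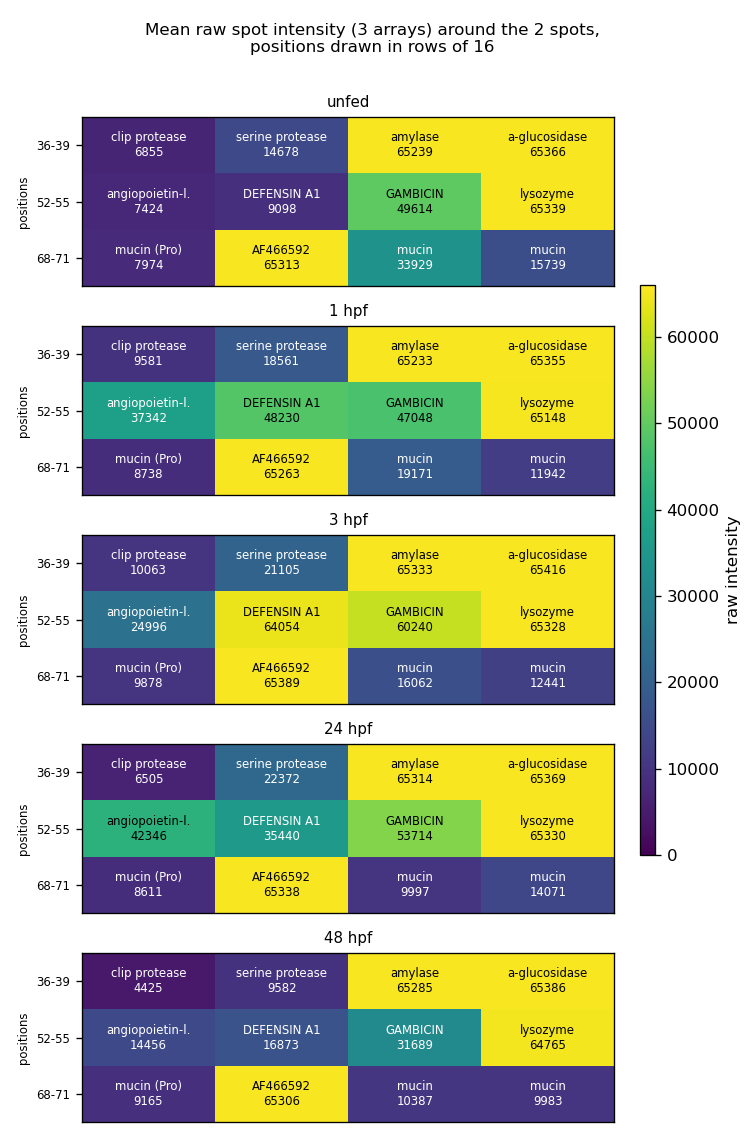
Mean raw spot intensity (3 arrays) of the 12 spots at and around defensin A1 and gambicin in the 5 groups, drawn in rows of 16 positions; colour and number give raw brightness, not RNA abundance between genes. Defensin A1 goes from 9098 in unfed glands to 64054 at 3 hpf while amylase, alpha-glucosidase, lysozyme and AF466592 stay saturated throughout.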

How the data were processed

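The deposited tables hold, for each array, raw spot and local background intensity and the normalized intensity the authors made from them. Recomputing the latter from the raw sheet, with the empty spots and the 2 reference spots that the file headers name, gave the deposited values within 0.000129. These are actin and S5, whereas the study's methods name RpL5. The series table holds a deposited score, the ratio of group means to unfed. The authors' own ratios, means and p-values, in other columns and sheets, were not used. Per the methods, the GEArray Expression Analysis suite made the values.

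Normalized intensities were raised to a floor of 0.113 (the median over arrays of the lowest signal above the empty spots), log2 transformed and fitted with limma 3.58.1 in R 4.3.3 (lmFit, eBayes, all 15 arrays in 1 fit, group only), with Benjamini-Hochberg adjustment over 432 probes (all but S5) per comparison. The script was tested on simulated data. Same-numbered arrays deviated together in all 30 same-number pairs (r from 0.545 to 0.891 over 67 probes), so the number was also fitted as a block. The number of arrays limits the precision, and saturation bounds bright spots. The members, the keyword lists of immune and marker genes, and the rule for named genes (the effector list, listed immune probes that passed, and the 5 probes most like each peptide) were chosen with earlier results of these data known. Alternatives covered scaling, background, floor, filter, groups in the fit, prior, a 2-group t-test and each array left out. That t-test was judged on its adjusted p, whereas the study called genes at a 2-fold difference with P of 0.05 or less. Neither identifier matched the RefSeq gene table of AaegL5.0 used here, so no genome position or sequence is given.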

Additional observations from a re-analysis of the deposited data

Results flagged for a closer look

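The change of defensin A1 from unfed differed between 48 and 3 hpf, by -2.14 on the log2 scale in a direct test of the fed groups with limma (adjusted p = 0.0154). The test of the difference itself passed the threshold, but not on the S5 spot alone (adjusted p = 0.0733), with median scaling (0.0522), no scaling (0.465) or normexp (0.117). It also did not pass with the 2 groups alone (0.463), by a 2-group t-test (adjusted p = 0.649), or without array 2 of 3 hpf (0.104) or 48 hpf (0.0811). The 3 hpf spots were saturated on all 3 arrays and the 48 hpf value of array 3 (0.827) was well above those of arrays 1 and 2 (0.324 and 0.330). Groups of 3 arrays are too small for a test of single outlying arrays.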

How the results depend on the processing

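Against unfed glands, 120 of 132 alternative values for defensin A1 and 117 of 132 for gambicin kept both their direction and their side of the threshold, and no defensin A1 value turned. Some of these could not turn. The block, the prior, the filter and the removal of an array in neither compared group leave the change itself as it was. For gambicin the side kept was that of no call. Without scaling, defensin A1 lost its calls at 1 hpf (3.05) and 24 hpf (2.50). The 2-group t-test lost that at 24 hpf (3.05, the log2 ratio of the means) on its adjusted p. The study, by its own p-values, reports defensin A1 as significantly raised at every time. At 48 hpf its change passed with the replicate block (1.59), quantile normalization (2.08, also with the block), normexp on the local background (3.40), the filter on dim probes (1.59), and with the block on the S5 spot (1.27) or the median (1.43). Leaving out 1 array gave 1.15 to 1.82 at 48 hpf, past the threshold without 24 hpf array 3 or 48 hpf array 1. Gambicin passed with the replicate block at 3 hpf (0.69) and 24 hpf (0.70), and with quantile normalization with or without it (0.46 and 0.52). It also passed by the 2-group t-test at 24 hpf (0.69). Leaving out 1 array gave 0.63 to 0.73 at 3 hpf, 0.64 to 0.74 at 24 hpf and -0.48 to 0.064 at 48 hpf, where it turned without 48 hpf array 1. It also turned without scaling at 1 hpf (-0.11, with or without the block) and under quantile normalization at 48 hpf (0.017, likewise), and fell past the threshold at 48 hpf with no scaling and the block (-0.85). Between fed groups, normexp turned defensin A1 from 1 to 3 hpf (-0.085) and gambicin from 1 to 24 hpf (-0.19). Gambicin from 3 to 24 hpf, 0.00 in the report, turned on the S5 spot (-0.029, with or without the block), with no scaling (-0.18, likewise), with normexp (-0.45), and ran from -0.011 to 0.030 on leaving out 1 array. The defensin A1 call of 48 against 3 hpf was lost on the S5 spot, the median, no scaling, normexp, the 2 groups alone and by the 2-group t-test. The scalings with the block and a floor at the median 2 SD of the empty spots were chosen after seeing the data. Each defensin A1 over gambicin value stayed above 0 and at p of 0.1 or, with 1 array left out, 0.2, the smallest that design allows. Probes called higher and lower were 4 and 1 at 1 hpf, 4 and 1 at 3 hpf, 4 and 0 at 24 hpf and 1 and 0 at 48 hpf. They became 66 and 13, 58 and 18, 53 and 27 and 48 and 33 with the block, and 13 and 16, 25 and 26, 27 and 34 and 21 and 23 with quantile normalization. Without scaling they were 0 at every time but 3 hpf (1 higher). The other settings gave 0 to 7 higher and 0 to 6 lower, including 0 to 7 and 0 to 2 with 1 array left out. The causes were not tested. Saturation limits defensin A1 at 3 hpf and on 1 array of 1 hpf, and gambicin on 5 arrays.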
